A study of Mus musculus with 2 samples.

Results

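Foxp3-positive regulatory T cells (Tregs) of the lung were chosen by the UMIs of a few genes in each cell, in single-cell RNA-seq of sorted living leukocytes. A UMI is a molecular identifier, so that each UMI stands for 1 captured transcript. A cell was kept with 200 or more genes, at most 15% mitochondrial UMIs, 1 or more UMIs of Foxp3, 2 or more of Cd3e, Cd3d and Cd3g together, none of the B cell genes Cd79a and Ms4a1, and under 4 UMIs of the cell cycle genes Mki67, Top2a, Birc5 and Ube2c. There were 84 such cells among 8451 cells that passed the filters on genes and mitochondrial UMIs, 72 in the BLM library and 12 in the naive library. The BLM library came from CD45+ lung cells of C57BL/6N mice 15 days after they were given bleomycin, an agent whose lung injury is followed by fibrosis. The naive library came from untreated mice of the same strain. Each library was a pool of 3 mice with no map from cell to mouse, so there was 1 library per group, and the library and the group cannot be told apart. No test between the groups was therefore possible, cells were not treated as replicates, and the intervals given below are exact 95% intervals that cover counting error only.

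Tregs are CD4 T cells that hold back the responses of other immune cells, and the transcription factor Foxp3 specifies them. They take up interleukin 2 through the high-affinity receptor chain Il2ra, and they carry Ctla4, which removes costimulatory ligands from antigen-presenting cells. In non-lymphoid tissue such as the lung, Tregs can leave the circulating state marked by Ccr7 and Klf2 and take up a tissue state marked by Gata3, Klrg1, the alarmin receptor Il1rl1 and the growth factor Areg, which is known for tissue repair.

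Levels are sums of UMIs over the Tregs of a library, given as counts per 1000000 UMIs (CPM) of the same cells, and log2 ratios compare such levels. Library and cell depth set the precision: BLM Tregs held 242757 UMIs in all (801 to 13677 per cell, median 2901.5) and naive Tregs 39350 (1867 to 7338, median 2812). A gene without a UMI was given an upper limit of 3 UMIs, which is 12.4 CPM in BLM Tregs and 76.2 CPM in naive Tregs, and a fold against it is written as at least that fold. There were 22 barcodes in both tables, 1 of them a BLM Treg and none a naive Treg. Of the BLM Tregs, 6 cells also held 10 or more UMIs of 12 macrophage and dendritic cell genes (Cd74, H2-Ab1, Il1b and Apoe among them), 1 of which also passed the same limit for 3 neutrophil genes. These cells were deep (3541 to 13677 UMIs, median 6286), held 1 to 6 Foxp3 UMIs each and made up 19.3% of all BLM Treg UMIs. They are called mixed-marker cells, and results that rest on them are given with and without them. No naive Treg met these limits.

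The 250 bases upstream of the annotated start of 3 genes are shown because these genes carried the contrast between the Tregs of both libraries: Ctla2a, a protease inhibitor gene, and Fgl2, a secreted suppressive molecule, were among the highest in BLM over naive Tregs, and Klf2, a factor that keeps T cells in circulation, was among the lowest. Sequences are from RefSeq (GRCm38.p6), read 5′ to 3′ along the gene's strand, and capitals mark matches to TGANTCA, the letters of an AP-1 site, or to TTCNNNGAA, the letters of a STAT site. Both motifs read the same on either strand.
Ctla2a (chr13:60936626-60936875, minus strand): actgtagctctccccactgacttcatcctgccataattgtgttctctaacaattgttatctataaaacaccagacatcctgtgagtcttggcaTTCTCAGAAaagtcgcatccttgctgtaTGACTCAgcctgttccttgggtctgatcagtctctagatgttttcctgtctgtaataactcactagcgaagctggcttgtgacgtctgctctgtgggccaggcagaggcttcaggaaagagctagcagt
Fgl2 (chr5:21372423-21372672, plus strand): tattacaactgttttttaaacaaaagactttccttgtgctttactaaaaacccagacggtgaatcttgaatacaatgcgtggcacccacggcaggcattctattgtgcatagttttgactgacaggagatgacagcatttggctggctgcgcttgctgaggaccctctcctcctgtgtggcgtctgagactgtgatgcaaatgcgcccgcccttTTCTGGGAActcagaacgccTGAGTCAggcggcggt
Klf2 (chr8:72318812-72319061, plus strand): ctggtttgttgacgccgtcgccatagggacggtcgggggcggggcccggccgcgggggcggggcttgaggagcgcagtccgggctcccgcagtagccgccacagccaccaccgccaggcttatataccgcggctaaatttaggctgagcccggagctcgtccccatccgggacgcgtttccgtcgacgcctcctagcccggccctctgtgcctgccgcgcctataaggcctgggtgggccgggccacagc
The Ctla2a and Fgl2 windows each held 1 match to either motif, and the Klf2 window held none. Over the same 250 bases, TGANTCA was in 6.75% of 32851 promoters and TTCNNNGAA in 7.02%. Of the 12 genes highest in BLM Tregs without the mixed-marker cells, 11 had a promoter in the table, and each motif was found in 3 of them (Ctla2a, Fgl2 and Hilpda for TGANTCA, and Ctla2a, Fgl2 and Il1r2 for TTCNNNGAA). Of the 12 lowest, 8 had one and none held either motif. The shares of 6.75% and 7.02% count promoters, whereas a named gene was counted if any of its promoters held the motif, so these are unlike units. A match gives only the letters in this window.

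The label was checked first. Foxp3 had 212 UMIs in the BLM Tregs and 24 in the naive Tregs, with at most 15 and 4 in a cell, and this level was fixed by the way the cells were chosen. B cells were taken as cells with 2 or more UMIs of Cd79a and Ms4a1 together and none of the 3 Cd3 genes. In B cells, which should lack it, Foxp3 was seen in 2 of 632 BLM cells (0.316%) and in 0 of 875 naive cells (a share of at most 0.343% at this count), at a median of 1785 and 2060 UMIs per cell against 2628 and 2652 in T cells. Of the other markers (Ikzf2, Il2ra, Ctla4 and Tnfrsf4), 3 or more were detected in 55 of 72 BLM Tregs (76.4%) and in 9 of 12 naive Tregs (75%). The same held for 16 of 599 BLM T cells without Foxp3 (2.67%) and for 12 of 521 naive ones (2.30%). Foxp3-negative T cells with a Cd4 UMI and no Cd8 UMI are a closer comparison. Among these, 10 out of 121 reached 3 or more markers in the BLM library, and 1 out of 94 in the naive library. A Cd4 UMI was found in 45 BLM and 6 naive Tregs, and a Cd8a or Cd8b1 UMI in 3 and 0. The markers thus went with the Treg label in most cells, and 2 BLM Tregs had none of the other 4.

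Cells close to the limits were set beside the cells well inside them. Of the 72 BLM Tregs, 20 had a single Foxp3 UMI, 19 had 2 and 33 had 3 or more, and in the naive library these numbers were 6, 2 and 4. BLM cells with a single Foxp3 UMI held 708 CPM of Ikzf2 and 509 CPM of Il2ra, against 1028 and 1191 CPM in cells with 2 or more, and 869 and 579 CPM in the 16 Foxp3-negative BLM T cells with 3 or more of the other markers. Ctla4 went the other way, with 1316 CPM (93 UMIs) at a single Foxp3 UMI and 1127 CPM (194 UMIs) at 2 or more. The naive levels also did, on few UMIs in 6 cells on either side. Ikzf2 stood at 1256 CPM (22 UMIs) with a single Foxp3 UMI and 596 CPM (13 UMIs) with 2 or more. Il2ra stood at 342 CPM (6 UMIs) and 229 CPM (5 UMIs). No intervals were computed for these levels, in either library. In the naive library, all 14 UMIs of Klrg1 and all 7 of Areg lay in cells with a single Foxp3 UMI, and none in the 6 cells with 2 or more. Among the Foxp3-positive barcodes left out, 21 BLM and 11 naive barcodes had under 2 Cd3 UMIs, 4 and 5 had a B cell gene and 16 and 2 were over the cell cycle limit. At the Cd3 limit, 9 BLM and 5 naive Tregs had exactly 2 Cd3 UMIs, and 4 and 6 barcodes were left out with exactly 1.

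Tregs were a larger share of the T cells in the BLM library. They made up 72 of 671 BLM T cells (10.7%, exact Clopper-Pearson interval 8.49 to 13.3%) and 12 of 533 naive T cells (2.25%, 1.17 to 3.9%). With each T cell thinned to 1000 UMIs (4 BLM and 2 naive T cells were too shallow), the expected shares were 6.71% and 1.16%. The intervals did not overlap, but they count cells of 1 pool each, and how far such a share varies between mice was not measured.

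To describe the Treg programme within each library, Tregs were set against Foxp3-negative T cells with a Cd4 UMI and no Cd8 UMI (121 BLM and 94 naive cells, with 322171 and 249001 UMIs). Genes were ranked where both sides together held 20 or more UMIs and at least 10% of the cells on the higher side held 1. In the BLM library, 335 of 4104 ranked genes were past 2-fold higher in Tregs (8.16%) and 331 past 2-fold lower (8.07%). In the naive library, 257 of 2579 were higher (9.97%) and 383 lower (14.9%). Without mixed-marker cells on either side, 328 of 3845 genes were higher in BLM Tregs (8.53%) and 289 lower (7.52%). Ikzf2, the Treg family member of the Ikaros factors, stood at 935 CPM in BLM Tregs (817 to 1065) and 889 CPM in naive Tregs (619 to 1237), against 118 and 60.2 CPM in the CD4 T cells. Il2ra, the interleukin 2 receptor chain, stood at 993 CPM in BLM Tregs and 280 CPM in naive Tregs, against 112 and 24.1 CPM. Both libraries thus had higher levels in Tregs, and only for Il2ra did the intervals of BLM Tregs (871 to 1126) and naive Tregs (140 to 500) not overlap among the markers used for the label.

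**Figure D1:**
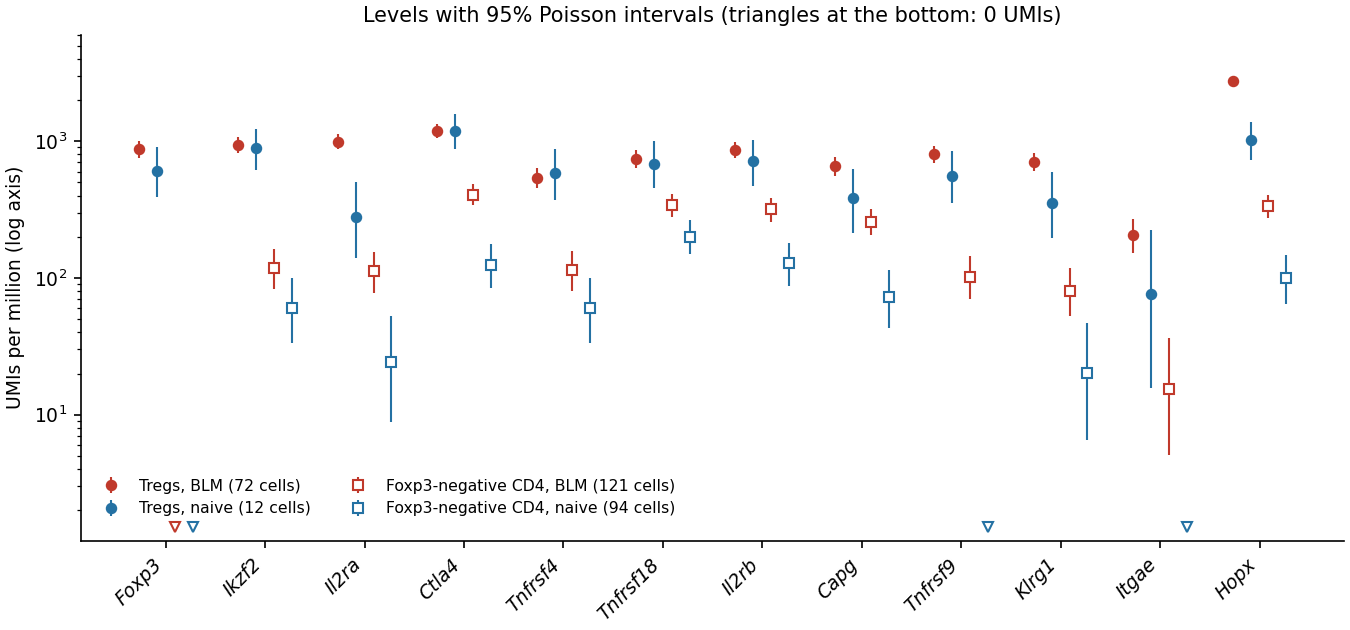
Levels of 12 genes in CPM on a log axis, in Tregs (filled circles) and Foxp3-negative CD4 T cells (open squares) of the BLM and the naive library. Bars are exact Poisson 95% intervals over the summed UMIs, and triangles at the bottom mark genes without a UMI. Tregs sat above the CD4 T cells of the same library for each gene, and Foxp3 was fixed by the choice of cells.

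Of the 16 genes of the Treg identity list, Foxp3 was left out of the counts because it chose the cells. Of the others, 12 were ranked in the BLM library and 10 were past 2-fold higher in Tregs, with a median log2 ratio of 1.49 against 0.00 over all ranked genes. In the naive library 8 were ranked and 8 were past 2-fold higher, with a median of 2.43. Ctla4 was 1.54 log2 units higher in BLM Tregs than in BLM CD4 T cells (1.24 to 1.85) and 3.26 higher in the naive library (2.58 to 3.97). Ctla4 in Tregs stood at 1182 CPM in the BLM library and 1194 CPM in the naive library (log2 ratio -0.01, -0.46 to 0.46), and the CD4 T cells stood at 407 CPM in the BLM library and 124 CPM in the naive one. Receptors of the TNF family, which relay survival and costimulatory signals, were also higher in Tregs. Tnfrsf4 (OX40) was 2.23 log2 units higher in the BLM library (1.70 to 2.80) and 3.28 in the naive library (2.28 to 4.32). Tnfrsf9 (4-1BB) had 194 UMIs in BLM Tregs against 33 in CD4 T cells, a log2 ratio of 2.96 (2.43 to 3.54), and 22 against 0 in the naive library (at least 46.4-fold). Traf1, which binds these receptors, was 1.68 and 2.11 log2 units higher. Of 17 genes of the TNF receptor and costimulation list, 5 of 9 ranked members were past 2-fold higher and 1 lower in BLM Tregs, and 5 of 8 were higher in naive Tregs. The NF-kB list, downstream of these receptors, had 5 of 18 ranked members past 2-fold higher in BLM Tregs, with a median of 0.56, and in naive Tregs 3 of 13 higher and 2 lower, with a median of -0.10.

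Genes of the tissue state were among those furthest above the CD4 T cells in BLM Tregs. Hopx, a small homeodomain protein, had 671 UMIs in 56 BLM Tregs and 40 in 7 naive Tregs, and was 3.04 and 3.34 log2 units above the CD4 T cells. Klrg1, a receptor of effector lymphocytes, was 3.13 log2 units higher in BLM Tregs (2.53 to 3.79), and Itgae, the CD103 chain that binds E-cadherin on epithelium, was 3.73 higher (50 against 5 UMIs). Il1rl1, the receptor of IL-33, was 3.22 log2 units higher in the BLM library and 3.37 in the naive library. Also among the highest were AA467197 with 39 against 2 UMIs (log2 ratio 4.69, 2.74 to 7.79) and Neb with 36 against 2 UMIs (4.58, 2.62 to 7.68). Itgax, Cd74 and H2-Ab1 were also among the highest with all cells, and their log2 ratios were 1.81, 0.51 and 0.30 once mixed-marker cells were left out of both sides. Cd74 and H2-Ab1 are among the genes that define those cells, so a fall of these genes follows from that choice. Genes of resting T cells were among the lowest: Igfbp4 had 13 UMIs in BLM Tregs against 193 in CD4 T cells (-3.48), Satb1, a chromatin organiser of resting T cells, 22 against 257 (-3.14), Klf2 15 against 176 (-3.14) and Tcf7, the TCF-1 factor, 12 against 109 (-2.77). Without the mixed-marker cells these 4 ratios were -3.30, -3.11, -2.97 and -2.80, and Tmem176a (0 against 48 UMIs), Slc20a1 (1 against 38) and Cd55 (1 against 36) were also among the 6 lowest, with Tcf7 no longer there. Of the genes ranked in both libraries, 108 were past 2-fold higher in BLM Tregs and 253 in naive Tregs, and 49 were on both lists (45.4% of the first and 19.4% of the second), where 10.1% of all genes ranked in both were past 2-fold higher in naive Tregs. A further 21 of the 108 were past 2-fold lower in naive Tregs.

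The comparison between the libraries set 72 BLM Tregs against 12 naive Tregs, and its precision was limited by the naive side. Of 2535 ranked genes, 455 were past 2-fold higher in BLM Tregs (17.9%) and 222 past 2-fold lower (8.76%), with a median log2 ratio of 0.08. The UMI minimum for ranking applied to both sides together, so a gene could be ranked on its BLM UMIs alone. Of the 455 higher genes, 58 had no naive UMI. Counting intervals did not show the same excess: 163 genes had an interval above 0 and 181 below. Without the mixed-marker cells these numbers were 148 and 143. With genes that had no naive UMI set to the upper limit of 3 UMIs, 410 remained past 2-fold higher. Without the mixed-marker cells, 360 of 2171 ranked genes were higher (16.6%) and 153 lower (7.05%). The comparison shares its BLM and naive Tregs with those against the CD4 T cells above, so the same values enter both. The CD4 T cells of the same libraries are given beside the Tregs, where 273 of 4082 ranked genes were past 2-fold higher in BLM (6.69%) and 263 lower (6.44%). Naive CD4 T cells held 249001 UMIs against 39350 in naive Tregs, and the part of depth in these shares was not tested.

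Several of the highest genes in BLM Tregs stood mainly in the 6 mixed-marker cells. Il1b had 250 UMIs in BLM Tregs, 233 of them in these cells, and 1 UMI in naive Tregs, and its log2 ratio was 5.34 (2.85 to 10.7) with all cells and 1.77 (-0.90 to 7.16) without them. Cd74 had 309 UMIs with 275 in mixed-marker cells, Fn1 108 with 88, Apoe 82 with 73, Spp1 69 with 53 and Cxcl2 117 with 81. These are genes that macrophages and neutrophils express strongly. Il1b, Cd74 and Apoe are among the genes that define the mixed-marker cells, so their place there follows from that choice. Fn1, Spp1 and Cxcl2 are not among the defining genes. Of the B cells in the BLM library, 26.4% held an Il1b UMI, against 29.2% of the BLM Tregs, at medians of 1785 and 2901.5 UMIs per cell. The B cells were not filtered for macrophage or neutrophil genes, and the part of such cells in their share was not tested.

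The highest genes without these cells were, by the end of the interval nearer to 0, Ctla2a, S100a4, Fgl2, Cxcr6, Syngr2, Cd52, Hilpda, Il2ra, Hopx, Il1r2, Id2 and Gabpb1. Ctla2a, whose upstream sequence is given above, had 134 UMIs in 43 of 72 BLM Tregs (552 CPM, 462 to 654) and 0 in naive Tregs, which is at least 7.24-fold higher. BLM CD4 T cells stood at 295 CPM of Ctla2a and naive CD4 T cells at 28.1 CPM, a log2 ratio of 3.39. S100a4, a calcium-binding protein of motile and memory cells, had 395 UMIs in 64 BLM Tregs and 10 in 4 naive Tregs, a log2 ratio of 2.68 (1.78 to 3.75), and 1.8 in the CD4 T cells. Fgl2 had 130 UMIs in 45 BLM Tregs and 2 in 1 naive Treg, a log2 ratio of 3.40 (1.52 to 6.46), and 0.78 (-0.18 to 1.8) in the CD4 T cells. These genes were thus found in most BLM Tregs and in at most 4 of 12 naive Tregs. Cxcr6, the receptor of the membrane-bound chemokine Cxcl16, had 48 UMIs in 18 BLM Tregs and none in the naive cells (at least 2.59-fold). Syngr2, a vesicle protein, had 109 against 2 UMIs (3.14, 1.26 to 6.21), and Id2, an inhibitor of E proteins that goes with effector fate, had 248 against 11 (1.87, 1.01 to 2.89). Il2ra was 1.83 log2 units higher (0.96 to 2.85), with 241 UMIs in 48 BLM cells and 11 in 7 naive cells. In the CD4 T cells Il2ra differed in the same direction by 2.21, and Syngr2 by -0.37.

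**Figure D2:**
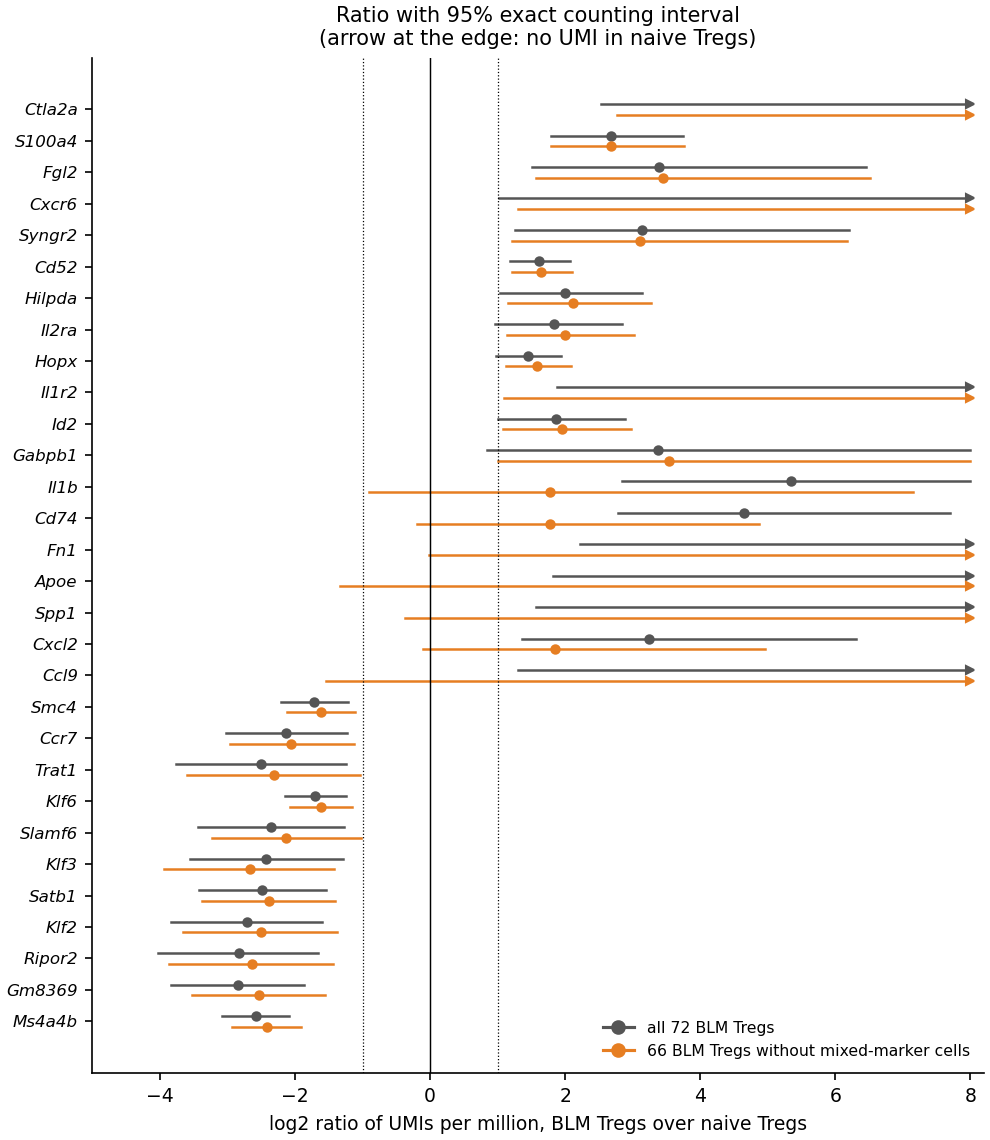
Log2 ratios of CPM, BLM over naive Tregs, for the highest and lowest genes with all 72 BLM Tregs (grey) and with the 66 cells left without mixed-marker cells (orange). Bars are exact 95% counting intervals, arrows mark genes without a naive UMI, and dotted lines mark 2-fold. Il1b, Cd74, Fn1, Apoe, Spp1, Cxcl2 and Ccl9 moved toward 0 without the mixed-marker cells, and the bound of Il1r2 fell from 4.65-fold to 2.75-fold. Il1b, Cd74 and Apoe are among the genes that define the mixed-marker cells. The lowest genes kept intervals below 0.

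Several of the lowest genes in BLM Tregs were those of resting and recirculating T cells. Ms4a4b, a membrane protein of T cells, had 73 UMIs in 29 of 72 BLM Tregs (301 CPM, 236 to 378) and 71 UMIs in 10 of 12 naive Tregs (1804 CPM, 1409 to 2276), a log2 ratio of -2.58 (-3.08 to -2.09). Klf2 had 15 UMIs in 12 BLM Tregs (61.8 CPM) and 16 in 7 naive Tregs (407 CPM), a log2 ratio of -2.72 (-3.84 to -1.61). Their intervals did not overlap between the libraries, and both genes differed less in the CD4 T cells, at -0.53 and -0.30. Ccr7, the receptor that guides T cells to lymph nodes, Satb1, Klf3, Klf6, Slamf6, Trat1, Ripor2, Smc4 and Gm8369 were also among the lowest genes, with log2 ratios from -1.70 (Klf6) to -2.85 (Gm8369). With Foxp3 at 2 or more UMIs, Klf6 was at -0.29 and so no longer past 2-fold. Against the CD4 T cells of the same library, the log2 ratio of Klf2 was -0.73 in naive Tregs (-1.57 to 0.01) and -3.14 in BLM Tregs (-4.01 to -2.38).

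Over the list of 18 resting and circulating genes, 12 were ranked. Past 2-fold lower in BLM Tregs were 10 of them, against 8.76% of all ranked genes, and 1 was higher. Their median log2 ratio was -2.10, against 0.08 over all ranked genes. The exception was Il7r, the interleukin 7 receptor, with 236 UMIs in 55 BLM Tregs and 13 in 5 naive Tregs (1.56, 0.76 to 2.49). S1pr1, the receptor for exit from tissue, had an interval across 0 (-0.63, -1.71 to 0.61). In the CD4 T cells 4 of 18 were past 2-fold lower, with a median of -0.74. Lef1, a partner of Tcf7 in resting T cells, was -1.17 in Tregs (-2.39 to 0.21) and -1.16 in the CD4 T cells. Summed in each cell, the list gave a median of 2.56 UMIs per 1000 in BLM Tregs (0 to 9.25) and 6.04 in naive Tregs (3.54 to 12.2). Most BLM Tregs (65 of 72) lay below the naive median and 12 of 12 naive Tregs above the BLM median, although the ranges overlapped.

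The list of 20 effector and tissue Treg genes went the other way, in Tregs and in CD4 T cells. Of 15 ranked members, 6 were past 2-fold higher in BLM Tregs and none lower, with a median of 0.99 (1.22, with 9 higher, without the mixed-marker cells). Over all ranked genes, 17.9% were higher in Tregs and 6.69% in the CD4 T cells. In the CD4 T cells 5 of 12 were past 2-fold higher, with a median of 0.95, so the list was not shown to differ more in Tregs. Besides Fgl2, Id2 and Il1r2, Areg had 113 UMIs in 32 BLM Tregs and 7 in 2 naive Tregs, a log2 ratio of 1.39 (0.30 to 2.73). Klrg1 had 172 UMIs in 33 BLM Tregs and 14 in 2 naive Tregs (0.99, 0.21 to 1.90), and Gata3, the factor of type 2 cells, 184 in 45 and 15 in 4 (0.99, 0.23 to 1.86). In B cells, Areg was seen in 1.90% of BLM cells, Klrg1 in 0.316% and Gata3 in 0.475%. Areg differed by 0.18 (-0.76 to 1.17) in the CD4 T cells. Rora and Maf, which many tissue lymphocytes share, had intervals across 0 in Tregs (-0.13, -0.60 to 0.36, and 0.26, -0.27 to 0.83), whereas Rora was 1.65 log2 units higher in BLM than in naive CD4 T cells. Per cell, the list had a median of 9.91 UMIs per 1000 in BLM Tregs (0.237 to 25) and 4.14 in naive Tregs (0.406 to 18.9). There were 64 of 72 BLM Tregs above the naive median, and 2 of 12 naive Tregs above the BLM median, which were the naive cells with Klrg1. Klrg1 is a member of this list, so its own UMIs add to the sum in those cells.

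**Figure D3:**
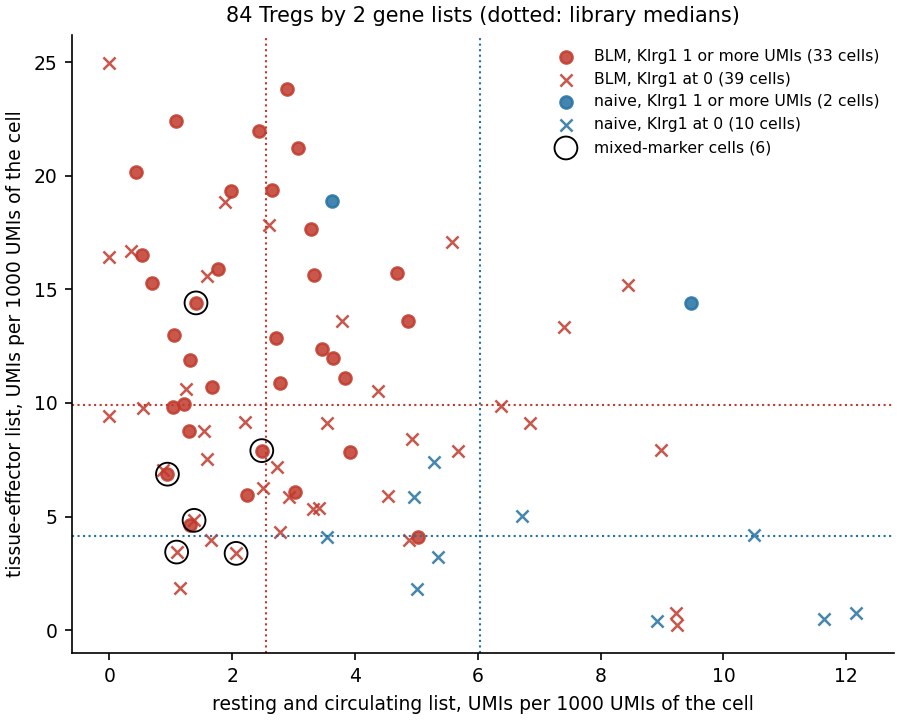
Each of the 84 Tregs by the UMIs per 1000 of its resting and circulating list (horizontal) and of its effector and tissue list (vertical). BLM cells are red and naive cells blue, filled where Klrg1 was detected, rings mark mixed-marker cells and dotted lines the library medians (2.56 and 6.04, and 9.91 and 4.14). Klrg1 is itself a member of the effector and tissue list. Most naive cells lie at the lower right and most BLM cells at the left, with overlap.

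Among the suppressive molecules, 5 of 8 ranked members were past 2-fold higher in BLM Tregs and 1 lower (median 1.11). Over all ranked genes, 17.9% were higher and 8.76% lower. Of the 8, 4 had an interval above 0 and 1 below. In the CD4 T cells, 5 of 7 ranked members were past 2-fold higher and 1 lower (median 1.53), against 6.69% and 6.44% of all ranked genes. Nt5e, the CD73 enzyme that makes adenosine, had 94 UMIs in 39 BLM Tregs and 3 in naive Tregs (2.34, 0.75 to 4.65). Pdcd1, the inhibitory receptor PD-1, had 92 UMIs against 4 (1.90, 0.49 to 3.80), and Lgals1, the lectin galectin-1, 236 against 18 (1.09, 0.40 to 1.87). The CD4 T cells had larger ratios of Nt5e (2.84) and Pdcd1 (4.02), so these genes were higher in both kinds of T cell of the BLM library. The lower member was Lrrc32, the GARP protein that presents latent TGF-beta, with 13 UMIs in BLM Tregs and 7 in naive Tregs (-1.73, -3.16 to -0.17). Il10 had 13 UMIs in 7 BLM Tregs and 0 in naive Tregs, which at this depth allows no fold. Ebi3 had 16 and 1 UMIs, Gzmb 21 and 5, Tgfb1 8 and 1 and Lag3 6 and 0, while Prf1 and Il12a had none. Effector cytokines were near the limit of detection: Il2, Il4, Il5, Il17f, Il21, Il22, Ifng and Csf2 had no UMI in any Treg, which allows up to 12.4 CPM in BLM Tregs, and Il17a had 3 UMIs in 1 cell.

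Chemokine receptors and adhesion molecules gave one of the highest list medians (1.46, or 1.43 with Cxcr6 at its limit). Of 17 ranked members among 25, 11 were past 2-fold higher in BLM Tregs and 2 lower, where 17.9% of all ranked genes were higher. Of the 17, 7 had an interval above 0 and 1 below. Without the mixed-marker cells, 8 of 15 were higher and 2 lower. In the CD4 T cells, 5 of 14 were higher and 0 lower, with a median of 0.65. Ccr2, a receptor for inflammatory monocyte chemokines, had 168 UMIs in 41 BLM Tregs and 7 in 3 naive Tregs (1.96, 0.89 to 3.30), and CD4 T cells differed by 1.69. Itgav, the alpha-v integrin chain that binds latent TGF-beta, had 102 UMIs in 40 BLM Tregs and 6 in 6 naive Tregs (1.46, 0.29 to 2.94), and it was 2.76 log2 units above the BLM CD4 T cells. Cd44, the hyaluronan receptor of activated T cells, had 133 UMIs against 7 (1.62, 0.54 to 2.97). Sdc4, a heparan sulphate proteoglycan, had 56 UMIs against 1 (3.18, 0.65 to 8.51). The lower members were Itgal, the LFA-1 chain used in adhesion to blood vessels (76 against 26 UMIs, -1.08, -1.74 to -0.38), and S1pr4 (-1.10, -2.31 to 0.27). Itgb2, the partner chain of Itgal, had a log2 ratio of 1.08 with all cells and 0.60 without the mixed-marker cells.

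Interferon-stimulated genes were lower in BLM Tregs. Of 7 ranked members among 20, 5 were past 2-fold lower and none higher, with a median of -1.43, where 8.76% of all ranked genes were lower. Ifi27l2a, a mitochondrial protein induced by interferon, had 124 UMIs in 41 BLM Tregs and 54 in 10 naive Tregs (-1.43, -1.90 to -0.94). Ifi203 (-1.66, -2.50 to -0.78), Gbp2 (-1.92, -3.30 to -0.45) and Isg15 (-1.12, -2.53 to 0.51) were also past 2-fold lower. In the CD4 T cells, 1 of 8 ranked members was past 2-fold lower, with a median of -0.53 and with Ifi27l2a at -0.47. In the naive library Ifi27l2a was 1.89 log2 units higher in Tregs than in CD4 T cells (1.38 to 2.39), and in the BLM library 0.94 (0.53 to 1.35). The MHC class I list, which interferon also induces, had 3 members past 2-fold higher and 1 lower among 15 ranked. Over all ranked genes, 17.9% were higher and 8.76% lower. The list's median was -0.20 (-0.03 without the mixed-marker cells), with 1 interval above 0 and 2 below. B2m was level (-0.03, -0.27 to 0.21).

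In the list of IL-1 family and type 2 receptor genes, 5 of 6 ranked members among 17 were past 2-fold higher in BLM Tregs (median 1.83, or 1.53 with genes without a naive UMI at their limit), and 3 of the 6 had an interval above 0. Over all ranked genes, 17.9% were higher. Il1r2, a decoy receptor that binds IL-1, had 86 UMIs in 28 BLM Tregs and none in naive Tregs, a difference of at least 4.65-fold, and 41 UMIs without the mixed-marker cells, a difference of at least 2.75-fold. Il1rn, the IL-1 receptor antagonist, had 29 of its 36 UMIs in mixed-marker cells and no UMI in naive Tregs, which makes it at least 1.94-fold higher with all cells and so short of 2-fold at its limit. Il18r1, the IL-18 receptor chain, and Ednrb, an endothelin receptor, each had 22 UMIs in BLM Tregs and 1 in naive Tregs (1.83, -0.79 to 7.20). Il1rl1 had 259 UMIs in 42 BLM Tregs and 18 in 4 naive Tregs (1.22, 0.53 to 2.0).

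Of the hypoxia and glycolysis list, 6 of 14 ranked members were past 2-fold higher in BLM Tregs (median 0.92, or 0.82 with Egln3 at its limit), 2 of them with an interval above 0, and 6 of 19 in the CD4 T cells (median 0.63). Over all ranked genes, these shares were 17.9% in Tregs and 6.69% in the CD4 T cells. Hilpda, a lipid droplet protein induced by low oxygen, had 221 UMIs in 41 BLM Tregs and 9 in 7 naive Tregs (1.99, 1.04 to 3.14), and it was 2.15 log2 units above the BLM CD4 T cells. Ldha, lactate dehydrogenase, differed by 1.40 in Tregs (0.31 to 2.75) and by 0.99 in CD4 T cells. Dgat1, which makes triglycerides, had 209 UMIs against 14 (1.27, 0.50 to 2.17), and 0.30 (-0.14 to 0.74) in CD4 T cells. The nuclear genes of oxidative phosphorylation had a median of 0.32, with 6 of 19 past 2-fold higher and 3 of the 19 intervals above 0. In the CD4 T cells their median was 0.43, with 4 of 21 past 2-fold higher and 10 intervals above 0. The list of lipid and sterol genes had a median of 0.24 in Tregs. The S100, annexin and galectin list was split: S100a4 and Lgals1 were past 2-fold higher, as were 4 others of 16 ranked, and S100a11 was lower with 100 UMIs against 38 (-1.23, -1.78 to -0.65). Lgals3 had 40 of its 54 UMIs in mixed-marker cells.

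The lists for TNF receptors, NF-kB and early genes of T cell receptor signals had medians near that of all genes. In the TNF receptor list none of 8 ranked members was past 2-fold in either direction (median 0.11). Tnfrsf4, however, went from -0.12 to 2.20 with Foxp3 at 2 or more UMIs, where the naive Tregs held 3 UMIs of it. In the list of early genes 1 of 15 was past 2-fold (median 0.01). Nr4a1, an immediate target of receptor signals, differed by -0.35 (-0.89 to 0.22) and Fos by -0.98 (-1.65 to -0.27), whereas Junb differed by 0.99 (0.42 to 1.61). The NF-kB list had 4 of 18 past 2-fold higher (median 0.19), where 17.9% of all ranked genes were higher. Among the 4 was Bcl2a1d with 58 against 1 UMI (3.23, 0.70 to 8.56). In the survival list 1 of 13 was higher and 1 lower. The lower gene was Bcl2l11, the pro-apoptotic BIM, with 27 UMIs against 10 (-1.19, -2.28 to 0.02), and Bcl2 was too sparse to rank with 9 against 6 UMIs. Of the lineage factors, 3 of 15 were past 2-fold higher, near the 17.9% of all ranked genes, and Stat5b was lower (-1.33, -2.30 to -0.27). The Treg identity list itself had a median of 0.11, with Il2ra and Ikzf4 higher and Lrrc32 lower.

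**Figure D4:**
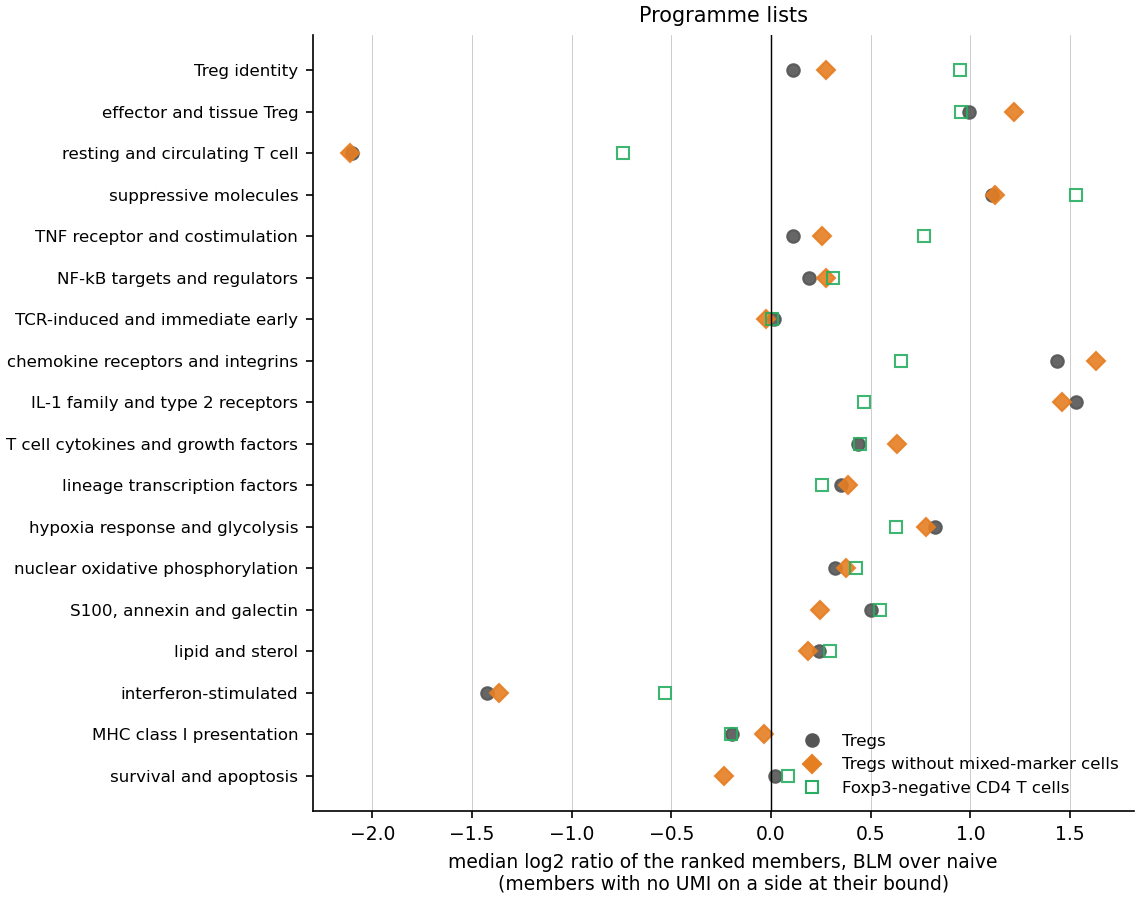
Median log2 ratio, BLM over naive, of the ranked members of 18 gene lists in Tregs (grey circles), in Tregs without mixed-marker cells (orange diamonds) and in Foxp3-negative CD4 T cells (open green squares), with genes without a UMI on a side at their limit. The resting list (-2.10) and the interferon list (-1.43) lie furthest to the left in Tregs, and the IL-1 family and the chemokine receptor and integrin lists furthest to the right.

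BLM Tregs also varied among themselves. Klrg1 was detected in 33 of them and not in 39, at medians of 2956 and 2691 UMIs. Cells with Klrg1 held 100 UMIs of Fgl2 against 30 in the cells without, a log2 ratio of 1.84 (1.24 to 2.48), and 39 UMIs of Cxcr6 against 9 (2.22, 1.15 to 3.45). Ccr8, a chemokine receptor of tissue Tregs, had 21 UMIs against 4 (2.5, 0.93 to 4.5), and Ccr3, an eotaxin receptor, 20 in 7 cells against 0. Hopx (1.53), Hilpda (1.6), Tnfrsf9 (1.52), Il2ra (1.43), Gata3 (1.15) and Ikzf2 (1.07) were higher as well, and Il1rl1 was detected in 28 of 33 cells against 14 of 39. S1pr1 (-1.70, -3.04 to -0.53), Ccr7 (-1.48) and Ms4a4b (-1.30) were lower. The split is a description of these cells, since a missing UMI does not show that Klrg1 was off. Areg did not follow it: it was detected in 16 cells on either side, with a log2 ratio of -0.82 (-1.42 to -0.24), and Itgae (-0.24) and Ccr2 (-0.13) differed little. With cells thinned to 1000 UMIs, the expected share with a Gata3 UMI was 60.6% with Klrg1 and 31.0% without, and with an Areg UMI 25.6% and 30.3%.

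**Figure D5:**
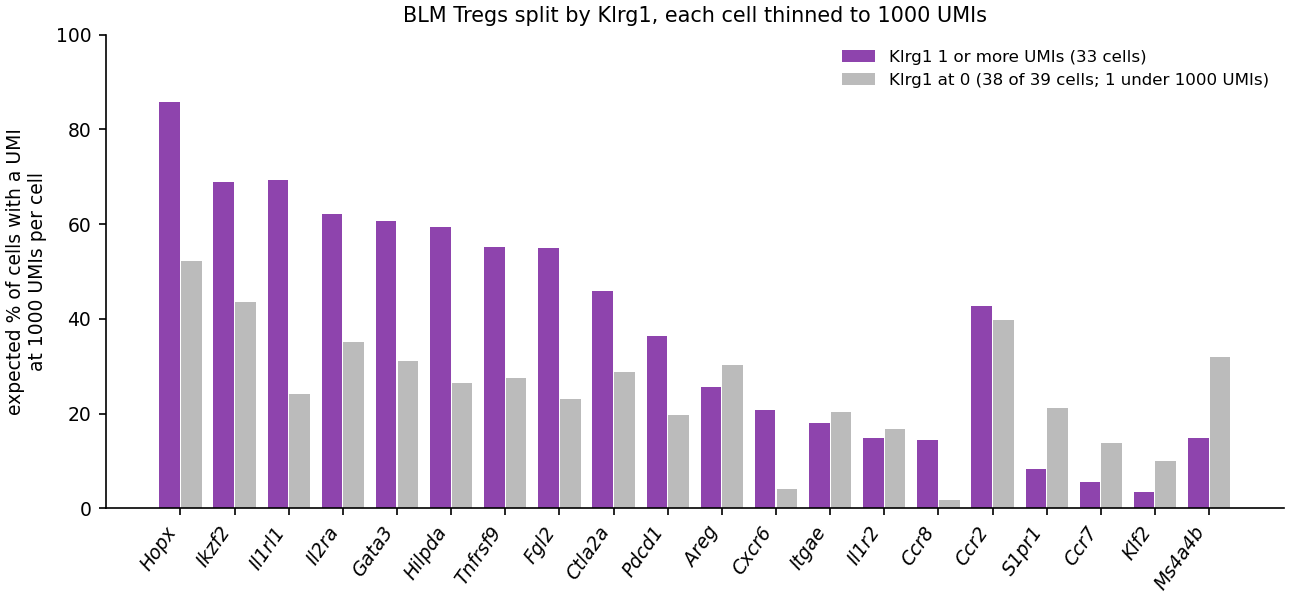
Expected percent of BLM Tregs with a UMI of each gene after thinning each cell to 1000 UMIs, for 33 cells with Klrg1 (purple) and 38 cells without (grey, 1 cell under 1000 UMIs left out). Hopx, Gata3, Fgl2 and Cxcr6 were more frequent with Klrg1, Ms4a4b, S1pr1 and Ccr7 less frequent, and Areg was similar (25.6% and 30.3%).

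Splits by other genes shared part of this pattern. Cells with Areg (32) had more Il2ra (1.06, 0.68 to 1.45), Cxcr6 (1.23, 0.34 to 2.18) and Gata3 (0.84, 0.41 to 1.28) than the cells without, as cells with Klrg1 had. They also held 68 UMIs of Pdcd1 against 24 in the other 40 cells, a log2 ratio of 1.87 (1.18 to 2.61), and 20 against 5 of Nrn1 (2.37, 0.91 to 4.14), while Klrg1 (0.20, -0.25 to 0.65) and Fgl2 (0.01, -0.52 to 0.53) had intervals across 0. Cells with Ctla2a (43) had more Klrg1 (1.32, 0.81 to 1.86), Fgl2 (1.43, 0.82 to 2.07) and Il2ra (1.41, 0.97 to 1.87). They held 25 UMIs of Socs2 against 2 (3.33, 1.33 to 6.46), 20 of Gzmb against 1 and all 23 of Penk, the enkephalin precursor, which lay in 3 cells. Cells with Itgae (28) held 8 UMIs of Ms4a4b against 65 in the cells without (-2.20, -3.47 to -1.14). Tff1, a trefoil peptide of the gastric mucosa, was detected in 9 BLM Tregs and no naive Treg. These 9 cells were deeper than the rest (median 3788 UMIs against 2849). Klrg1 was held by 6 of them, Areg by 6 and Il1rl1 by 7, against 27, 26 and 35 of the other 63. Their log2 ratios had intervals across 0 (Klrg1 0.41, -0.20 to 0.98, Areg 0.29, -0.50 to 1.01, and Il1rl1 0.42, -0.06 to 0.89). Without the mixed-marker cells, 8 cells with Tff1 were left. Il1rl1 was then higher in them (0.60, 0.11 to 1.07), while Klrg1 and Areg still had intervals across 0. With all 9 cells, Gata3 was higher (1.21, 0.72 to 1.69) and Hilpda lower (-0.99, -1.80 to -0.27). None of the 9 held Klf2, but with 15 UMIs in the other cells its interval also spanned 0 (upper end 0.75). None held Ms4a4b, which had 73 UMIs in the other cells (upper end -1.67). The 9 cells held 22 UMIs of Cxcr6 against 26 in all other BLM Tregs (2.36, 1.47 to 3.23) and 11 of Dgat2 against 10.

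Markers of other cell types were measured in the Tregs as whole lists. Of 12 macrophage and monocyte markers, the summed level was 4383 CPM in BLM Tregs, 1241 CPM without the mixed-marker cells and 1499 CPM in naive Tregs, against 7096 and 10776 CPM in B cells of the BLM and naive libraries. Of 8 neutrophil markers, it was 1845 CPM, 250 CPM without the mixed-marker cells and 229 CPM in naive Tregs. Some markers of both lists also define the mixed-marker cells, so the fall without those cells follows in part from that choice. Of 8 gamma delta T cell markers, 1 was detected in BLM Tregs and 2 in naive Tregs, and of 8 NK cell markers 3 and 2. In the ILC2 list, whose Il1rl1, Gata3, Areg and Klrg1 are shared with tissue Tregs, 7 of 10 markers were detected in BLM Tregs and 4 in naive Tregs, with summed levels of 3024 and 1372 CPM. Arg1 (3 UMIs), Il13 (1) and Calca (2) had a UMI in BLM Tregs only, and Il5, Hs3st1 and Cyp11a1 had none in either. Among B cell markers, Igkc had 15 UMIs in BLM Tregs and 18 in naive Tregs (-2.89, -3.98 to -1.82), and it differed by -2.87 in the CD4 T cells. The part of free RNA from other cells in the values above was not tested.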

How the data were processed

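Each library was deposited by the authors as a cell-by-gene table of whole-number UMI counts. The BD Rhapsody WTA pipeline version 1.8 made them with GRCm38 and GENCODE vM19, per the file headers, with UMI errors corrected and no normalisation. Genes absent from a table were counted as 0. The Tregs, gene lists (26 lists, 8 of them for other cell types) and tests were chosen with earlier results of these data known. From the counts, UMIs were summed over cells in Python 3.11.15 (numpy 2.4.6, scipy 1.17.1) and given as CPM with exact Poisson intervals, and ratios with exact conditional intervals. The calculation was tested on simulated counts. With 1 library per group there was no test. Named genes were the 12 highest and 12 lowest (10 and 6 against CD4 T cells) by the interval's end nearer 0. Doublet calls were not used to leave out cells: Scrublet in scanpy 1.11.5 called 8 BLM barcodes (0.177%) and 61 naive barcodes (1.55%), so leaving out the top 3% was an alternative. The limit for mixed-marker cells was chosen after the data were seen. Promoters were matched by gene symbol. Some listed or ranked genes are counted but not reported here by name.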

Additional observations from a re-analysis of the deposited data

Results flagged for a closer look

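Cycling T cells were left out of the Tregs by the limit on cell cycle genes and enter no comparison above, and they also held Foxp3. Of 38 cycling T cells in the BLM library, 16 held a Foxp3 UMI (42.1%, exact Clopper-Pearson 95% interval 26.3 to 59.2%), and of 12 in the naive library 2 did (16.7%, 2.09 to 48.4%). In B cells the share was 0.316% and 0. This signal lay in cells that the comparisons do not use, above the level in the naive library, whose interval overlapped, and the difference between the libraries was not tested. The 16 BLM cells were deep (median 8185.5 UMIs) and held 100 UMIs of Ikzf2, 142 of Il2ra and 159 of Ctla4. They also held 281 UMIs of S100a4 in 16 cells, 76 of Klrg1 in 10 cells, 38 of Areg in 8 cells, 10 of Tff1 in 6 cells and 5 of Klf2. Their depth is higher than that of the other Tregs, and its part in the share was not tested.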

How the results depend on the processing

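Of the summary values recomputed under the alternatives, 214 stayed within their counting interval or within 1.5 times their count, 38 moved and none reversed. For single genes these numbers were 570 and 56. With Foxp3 at 2 or more UMIs, Tregs were 7.75% of BLM T cells and 6 cells (1.13%) of the naive ones, and the summed log2 ratio, BLM over naive Tregs, was 0.55 for the identity list (0.24 with all cells) and 1.64 for the effector list (0.77), with 0.62 for the effector list in naive Tregs over CD4 T cells (1.44). Under it S100a4 was 5.22, Tnfrsf4 2.20 (-0.12, with 3 UMIs in the naive Tregs left) and Klf6 -0.29 (-1.70). Il1r2, which had no naive UMI, had a bound of 0.48 in log2 units (2.22 with all cells) at the limit of 3 UMIs. Without cells with 5 or more UMIs of 6 myeloid genes, 6 naive Tregs were left, 130 genes were lower and the effector list was 1.01; over BLM CD4 T cells the identity list was 1.86 (1.68) and the effector list 1.30 (1.08). With cycling cells kept, 775 genes were higher and 424 lower, the identity list was 0.033 and the resting list -1.80 (-1.47); over CD4 T cells identity, effector and resting lists were 1.47, 0.77 and -1.87 in BLM, and the effector list 1.19 in naive Tregs. With each cell at the same weight, the effector list was 1.0, and 1.23 over BLM CD4 T cells, where a total without mitochondrial and ribosomal genes gave 0.99. With genes of 10 or more UMIs, 883 genes were higher and 579 lower, and 574 and 852 in naive Tregs over CD4 T cells. With 50 or more UMIs the numbers were 133 and 32, in BLM Tregs over CD4 T cells 131 and 98, and in naive Tregs 66 and 93. Against all other T cells, the identity and effector lists were 2.01 and 1.68 in BLM, and in naive Tregs 898 genes were higher and 854 lower, with 2.01 for the identity list and -0.45 for the resting list (-0.74). The number of genes tested differs by construction where the UMI minimum changes, and the cause of the other moves was not tested.

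No paired analysis was possible because each group had 1 library. With 12 naive Tregs, 1 UMI is a large part of a naive level, and genes without a naive UMI have lower bounds. The spread between mice was not measured, and the limit of detection in naive Tregs was 76.2 CPM.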
